A study of Mus musculus with 11 samples.

Results

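Bipolar cells carry signals from photoreceptors to amacrine and ganglion cells, and their subtypes are set by transcription factors that are switched on as the cells leave the cell cycle and mature. The 9 genes described here, of 25311 in the deposited table, were listed by name as bipolar cell transcription factors: *Vsx1*, *Isl1*, *Lhx3*, *Lhx4*, *Bhlhe22*, *Bhlhe23*, *Prdm8*, *Fezf2* and *Irx6*. All 9 were present in the table, with between 359 UMIs for *Irx6* and 12602 UMIs for *Isl1* over all deposited cells.

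Retinal cells of 11 C57BL/6J mice were captured at P10 (postnatal day 10) with inDrop, a droplet method that tags each RNA molecule with a unique molecular identifier (UMI). Control mice received PBS (n = 3). Phase I ROP mice received streptozotocin (STZ), which destroys insulin-producing cells and makes the pups hyperglycemic (n = 3), and were littermates of the controls. The other 2 groups also received STZ and were nursed by dams on a diet enriched in ω-3 (n = 2) or ω-6 (n = 3) fatty acids, and these mice were littermates of each other, divided between 2 cages. Total counts per library ran from 2565568 to 3488834 UMIs in control and Phase I ROP mice and from 4356992 to 6517776 in the diet groups.

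*Vsx1*, *Lhx3*, *Lhx4* and *Isl1* encode homeodomain proteins, of which the last 3 also carry LIM domains. In the retina, VSX1 acts in cone bipolar subtypes, ISL1 in ON and rod bipolar cells and also in starburst amacrine and ganglion cells, LHX4 in cone bipolar cells, and LHX3 is a LIM-homeodomain relative of LHX4. *Bhlhe22* and *Bhlhe23* encode related basic helix-loop-helix repressors, the first known from OFF cone bipolar and amacrine cells and the second from rod bipolar cells. *Prdm8* encodes a PR-domain protein needed for rod bipolar and some OFF cone bipolar cells, *Fezf2* a zinc finger repressor, and *Irx6* an Iroquois homeodomain protein of some OFF cone bipolar cells.

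In GENCODE M21 (GRCm38.p6), all 9 genes were protein-coding. The 4 homeodomain genes named first lay at chr2:150680702-150689360 (*Vsx1*), chr2:26200212-26208289 (*Lhx3*), chr1:155698031-155751684 (*Lhx4*) and chr13:116298281-116309689 (*Isl1*), all on the minus strand. *Bhlhe23* lay at chr2:180774381-180776900 and *Fezf2* at chr14:12342094-12348189, also on the minus strand. *Bhlhe22* at chr3:18054174-18057517, *Prdm8* at chr5:98167198-98188991 and *Irx6* at chr8:92674288-92680956 were on the plus strand.

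The upstream sequences of 3 members are shown because *Lhx4* and *Bhlhe23* were among the members higher in Phase I ROP bipolar cells and *Isl1* was not. They came from RefSeq on GRCm38.p6, as the bases before the start of transcription, 5′ to 3′ on the strand of the gene: *Lhx4* chr1:155742028-155742277, *Bhlhe23* chr2:180776901-180777150 and *Isl1* chr13:116309690-116309938, all minus strand. The *Lhx4* start used by RefSeq lay inside the longer span of the GENCODE gene. Capitals mark a match to a searched motif.
Lhx4: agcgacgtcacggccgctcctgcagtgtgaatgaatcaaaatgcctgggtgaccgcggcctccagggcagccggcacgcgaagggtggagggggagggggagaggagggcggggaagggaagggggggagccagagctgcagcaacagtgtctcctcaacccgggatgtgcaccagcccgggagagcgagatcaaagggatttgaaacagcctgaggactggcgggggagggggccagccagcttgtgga
Bhlhe23: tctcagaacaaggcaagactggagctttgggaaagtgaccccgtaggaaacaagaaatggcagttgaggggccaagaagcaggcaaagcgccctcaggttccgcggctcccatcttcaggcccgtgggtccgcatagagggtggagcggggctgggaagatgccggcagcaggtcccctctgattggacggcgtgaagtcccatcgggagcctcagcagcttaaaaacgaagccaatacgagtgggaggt
Isl1: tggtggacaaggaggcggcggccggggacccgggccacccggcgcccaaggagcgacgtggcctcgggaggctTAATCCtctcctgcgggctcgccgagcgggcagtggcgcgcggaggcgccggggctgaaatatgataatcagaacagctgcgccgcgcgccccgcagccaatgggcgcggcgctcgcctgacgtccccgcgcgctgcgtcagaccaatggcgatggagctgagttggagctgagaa
Searched on both strands were TAATCC (or GGATTA), the site of OTX2 and CRX, TAATTA, a homeodomain core, and CATATG, an E-box of basic helix-loop-helix factors. *Isl1* held 1 TAATCC, 177 to 172 bases upstream of the start. Its printed stretch has 249 bases, since 1 base next to the start lay in an annotated exon and was left out. *Lhx4* and *Bhlhe23* held none of the 3 motifs in these windows. *Vsx1* and *Prdm8*, also higher in Phase I ROP bipolar cells, and *Lhx3* and *Fezf2*, which were not called, held none in their windows either. Of 32851 promoter windows of this length, 6.25% held TAATCC, 4.84% TAATTA and 3.46% CATATG.

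Of 20067 deposited cells, 20033 had more than 300 genes and were clustered into 25 clusters, named from marker genes that included none of the 9 members. The classes were rods (9760 cells), bipolar cells (3598), amacrine cells (3284), Müller glia (1425), cones (1126), endothelial cells (113), ganglion cells (96), retinal pigment epithelium (75), microglia (59), astrocytes (47) and horizontal cells (31), and 2 clusters with 419 cells stayed unnamed. The bipolar class held 188 to 445 cells per mouse and all 10 bipolar markers in every mouse, such as *Otx2* and *Trpm1*. Its clusters were named from such markers, so this is no separate check of the label. An ON bipolar-like cluster of 2673 cells, led by *Pcp2*, *Trpm1* and *Grm6*, made up the class together with a cluster of 925 cells. The latter was led by *Grik1*, *Gsg1* and *Scgn* and is called the *Grik1* cluster here. In 7 of the 8 rod clusters, with 2765 cells, no rod marker was among the 10 leading genes.

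The control libraries stood apart from all others. In the bipolar class, the small nuclear RNA *Rn7sk* was at 143.5 to 241.8 CPM (UMIs scaled to a common library total over the summed cells) in the controls and at 0 to 5.53 CPM in the 8 other mice, and the immediate early gene *Fosb* was at 0 to 0.991 against 12.8 to 61.7 CPM. Treatment and library preparation cannot be told apart in the comparison with control. The summed level of the 10 rod markers in the bipolar class, a measure of rod RNA there, was 993 to 1723 CPM in control and 1758 to 2802 CPM in Phase I ROP mice. Between libraries, 1154 cell barcodes were shared, in 2345 cells.

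Among the 5 classes with at least 10 cells in every mouse (bipolar, amacrine, rod, cone and Müller glia), the bipolar class held the highest level of 8 of the 9 members. Ganglion cells, pooled over mice, held more *Irx6* (61.8 CPM) than bipolar cells. The levels in this paragraph are CPM of the cells summed per mouse, as mean ± SD over 11 mice, and are compared along one gene only, since they are not per length. They are a description, because the classes were built from the same cells and 5 members (*Vsx1*, *Isl1*, *Bhlhe22*, *Prdm8* and *Irx6*) were among the variable genes used.

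*Vsx1* was at 193 ± 71.1 CPM in bipolar cells and at 10.2 ± 8.72 CPM in cones, the next class, and the ranges over mice did not overlap (lowest bipolar value 111.3, highest cone value 21.6). Amacrine cells (4.11 ± 4.36), rods (3.47 ± 4.85) and Müller glia (1.55 ± 2.42) followed, and the ranges over mice overlapped between each of these neighbours. A median of 14.9% of bipolar cells per mouse held a *Vsx1* UMI, against 0.192% of rods and 0% of Müller glia, which should lack the gene. The Müller glia were about as deeply sequenced (median 1595 to 2826 UMIs per cell) as the bipolar cells (1698.5 to 3305).

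*Lhx3* and *Lhx4* had the same order of bipolar cells before cones. *Lhx3* was at 64.8 ± 20.4 CPM in bipolar cells and 2.55 ± 2.80 CPM in cones. *Lhx4* was at 310.2 ± 120.2 CPM in bipolar cells and at 46.7 ± 33.2 CPM in cones, where it was above the rods (10.9 ± 15.01 CPM) in 9 of 11 mice. *Bhlhe23* was at 258 ± 82.9 CPM in bipolar cells and at no more than 2.74 ± 5.21 CPM in any other class with 10 or more cells in every mouse. *Irx6* was at 27.6 ± 9.78 CPM in bipolar cells and 2.29 ± 2.63 CPM in Müller glia. For these 4 genes, the bipolar level was above that of the next of the 5 classes in 11 of 11 mice, without overlap.

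*Isl1* was at 1150 ± 268 CPM in bipolar cells, 132 ± 41.4 CPM in amacrine cells and 23.95 ± 30.7 CPM in rods, and the bipolar level was above the amacrine level in 11 of 11 mice without overlap. Within the amacrine class, it sat in the starburst-like cluster (128 cells, led by *Slc5a7* and *Slc18a3*), where it reached 1585 CPM over all cells and 94.5% of cells held a UMI. The 4 other amacrine clusters were at 5.84 to 21.8 CPM. Ganglion cells, with 96 cells pooled, held *Isl1* at 167 CPM (240 UMIs) and *Irx6* at 61.8 CPM (89 UMIs).

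*Prdm8* and *Fezf2* also had amacrine cells second. *Prdm8* was at 301 ± 107 CPM in bipolar and 145 ± 58.6 CPM in amacrine cells, higher in bipolar cells in 11 of 11 mice although the ranges of all mice overlapped. It was also measured in cones at 72.5 ± 40.9 CPM. *Fezf2* was at 50.1 ± 24.0 CPM in bipolar and 11.03 ± 5.61 CPM in amacrine cells, higher in bipolar cells in 10 of 11 mice. *Bhlhe22* was the exception to the order, at 159 ± 45.0 CPM in amacrine and 122 ± 60.6 CPM in bipolar cells, with the amacrine level higher in 9 of 11 mice and overlapping ranges. Within the amacrine class, *Bhlhe22* was at 236 CPM in the *C1ql1* and *Gad1* cluster, 137 CPM in the *Ebf3* cluster and 0.969 CPM (1 UMI) in the starburst-like cluster.

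**Figure D1:**
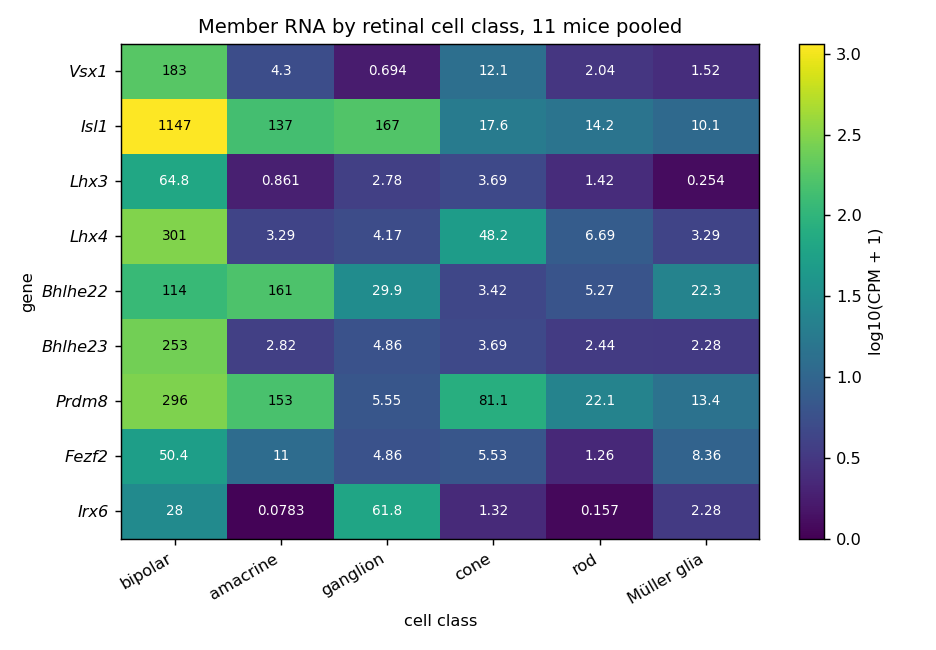
Pooled level of each member (CPM of all cells of a class, colour on a log scale, read along a row) in 6 retinal classes. Bipolar cells are highest in 7 rows, amacrine cells (161 CPM) are above bipolar cells (114 CPM) for *Bhlhe22*, and ganglion cells (61.8 CPM) are above bipolar cells (28.03 CPM) for *Irx6*.

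The members divided the bipolar class further. The class was clustered again without the 9 members, which gave 10 sub-clusters. Levels in these paragraphs are pooled CPM over all mice with the range over the mice that had at least 10 cells there, and are given without a test. In the rod bipolar-like sub-cluster (509 cells, led by *Prkca*, *Car8* and *Vstm2b*), *Isl1* was at 2779 CPM (1546 to 3414 over 11 mice), *Prdm8* at 934 CPM (342 to 1595) and *Bhlhe23* at 493 CPM (150.5 to 710.3). *Vsx1* (9.49 CPM) and *Bhlhe22* (14.2 CPM) were low there, and *Lhx3*, *Fezf2* and *Irx6* were each at no more than 2.03 CPM.

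A sub-cluster of 688 cells led by *Nwd2*, *Kcng4* and *Ptprt* also held *Isl1*, at 1230 CPM, but with other partners. *Lhx4* was at 541 CPM there (202 to 763.5 over 11 mice) against 167 CPM in the rod bipolar-like cells. *Bhlhe22* was at 206 CPM, above its rod bipolar-like level, and *Prdm8* at 119 CPM, below its rod bipolar-like level. *Vsx1* was at 34.0 CPM.

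*Vsx1*, *Lhx3* and *Irx6* were highest together in a sub-cluster of 499 cells, of which 207 came from the ON bipolar-like cluster and the others from the *Grik1* cluster. Its 10 leading genes included *Zfhx4*, *Nxph1* and *Tacr3* and also *Vsx1* and *Lhx3* themselves. *Vsx1* was at 834 CPM (554 to 1237 over 10 mice), *Lhx3* at 302 CPM (70.3 to 437.8) and *Irx6* at 126 CPM (47.3 to 368.9). *Isl1* was at 968 CPM and *Fezf2* at 106 CPM in these cells.

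*Fezf2* was highest in a sub-cluster of 205 cells led by *Sall3* and *Grik1*, at 345 CPM (76.2 to 599 over 9 mice), together with *Lhx4* at 697 CPM (305 to 1133). All other members were at 55.8 CPM or less in it, with *Isl1* at 24.3 CPM. Of the 6 other sub-clusters, 1 with 494 cells was 91.7% control cells, 2 with 326 and 114 cells had 17413 and 16117 CPM of rod markers, and 1 with 402 cells had a median of 760.5 UMIs per cell. *Bhlhe22* was highest, at 293 CPM, in a sub-cluster of 260 cells whose leading genes included *Crym* and *Fabp7*.

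**Figure D2:**
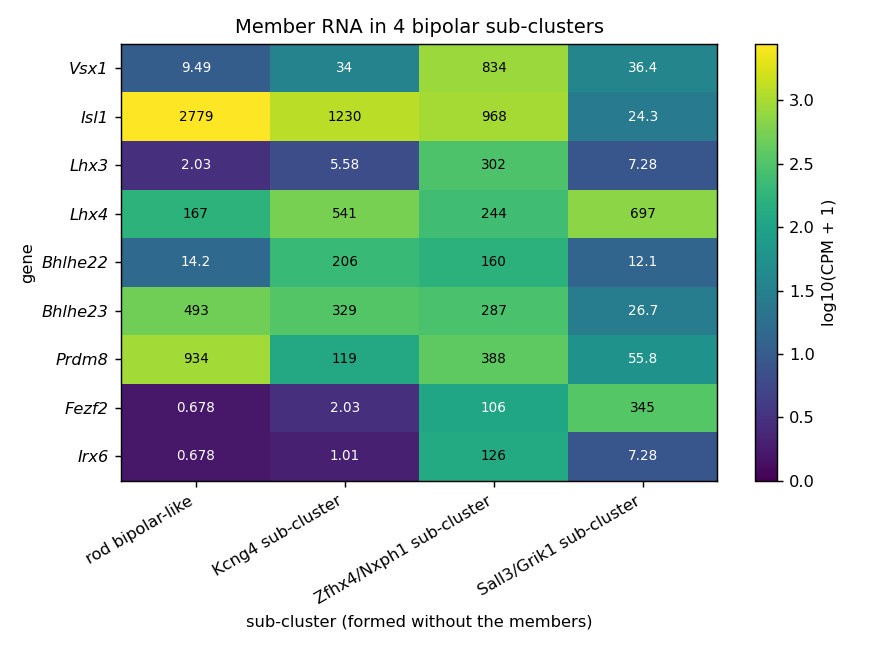
Pooled level of each member (CPM, colour on a log scale, read along a row) in 4 bipolar sub-clusters made without the members. *Isl1*, *Prdm8* and *Bhlhe23* are highest in the rod bipolar-like sub-cluster, *Vsx1*, *Lhx3* and *Irx6* in that led by *Zfhx4* and *Nxph1*, and *Lhx4* and *Fezf2* in that led by *Sall3* and *Grik1*.

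Single cells showed 2 settings of *Vsx1*. In the ON bipolar-like cluster, 277 cells had a *Vsx1* UMI, and 220 of them (79.4%) also had *Isl1* and 172 (62.1%) the ON receptor gene *Grm6*, against 61.1% and 40.4% of the 2396 cells without *Vsx1*. In the *Grik1* cluster, 259 cells had a *Vsx1* UMI and 15 of them (5.79%) had *Isl1*, against 3.24% of all 925 cells there. Of the 259 cells, 91 (35.1%) had *Bhlhe22* and 79 (30.5%) *Tacr3*, against 5.86% and 10.96% of the 666 cells without *Vsx1*. *Vsx1* and *Isl1* were among the variable genes that formed the clusters, so the contrast between the clusters is a description. *Lhx3* and *Irx6* went with *Vsx1* in both clusters. *Lhx3* was seen in 35.7% of *Vsx1* cells and 2.46% of the others in the ON bipolar-like cluster, and in 36.3% and 9.16% in the *Grik1* cluster. *Irx6* was seen in 11.6% against 0.584%, and in 31.7% against 4.204%. *Bhlhe22* differed in that it was seen in 3.25% of *Vsx1* cells and 14.7% of the others in the ON bipolar-like cluster. Cells with a *Vsx1* UMI were deeper (median 2715 against 2310 UMIs in the ON bipolar-like cluster, 2514 against 1894 in the *Grik1* cluster), and the shares were not corrected for depth.

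Over the 25 clusters, with cells summed over all mice, the genes most like each member were found among 17342 genes with at least 100 UMIs, by Pearson's r of log2(CPM + 1). The clusters share libraries and differ in depth and size, so r is a description. *Vsx1* was nearest to *Fezf2* (r = 0.805), *Lhx4* (0.785) and *Lrtm1* (0.778), and *Fezf2* to *Cdh8* (0.865), *Tacr3* (0.837) and *Vsx1* (0.805). *Lhx3* was nearest to *1700022E09Rik* (0.909), *Dnaic1* (0.841) and *Lrtm1* (0.834), and *Bhlhe23* to *4930543K20Rik* (0.833), *Lhx3* (0.807) and *1700022E09Rik* (0.793). *Lhx4* was nearest to *Gabrr3* (0.809), *Otor* (0.800) and *1700022E09Rik* (0.791), and *Isl1* to *Hecw1* (0.797), *Cntn5* (0.774) and *Gm5316* (0.768). *Bhlhe22* was nearest to *Kirrel3* (0.848), *Ptprs* (0.826) and *Ssc5d* (0.815), *Prdm8* to *Zfp81* (0.837), *Lin7c* (0.803) and *Pwp1* (0.793), and *Irx6* to *Chrna6* (0.805), *Glra1* (0.802) and *A330008L17Rik* (0.796).

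The first comparison asked how Phase I ROP differed from control within a cell class. In the bipolar class, *Vsx1*, *Lhx4*, *Bhlhe22*, *Bhlhe23* and *Prdm8* were higher in Phase I ROP mice, by 1.62-fold to 2.36-fold, and none of the 9 members was lower. UMIs were summed per mouse and tested with edgeR's quasi-likelihood test, with p-values adjusted over all 10019 genes tested in the class. In that test 45.2% of genes were called at an adjusted p under 0.05, 21.3% as higher and 23.9% as lower, so that 5 of 9 members called higher is to be read against 21.3%. The median log2 fold change was 0.71 over the members and 0.03 over all genes tested. The p-values measure the spread between mice of each group.

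The levels that follow are CPM scaled by TMM, one value per mouse. *Lhx4* was at 233.4, 142 and 157.9 CPM in the control mice and at 337.8, 362 and 437.1 CPM in the Phase I ROP mice, a log2 fold change of 1.09 ± 0.18 (SE, adjusted p = 0.000341). *Bhlhe22* was at 80.1, 45.0 and 68.7 CPM in control and at 162.1, 143.4 and 153 CPM in Phase I ROP mice (log2 fold change 1.24 ± 0.22, adjusted p = 0.000425). In both genes every Phase I ROP mouse lay above every control mouse, as was the case, in either direction, for 55.3% of all genes tested.

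*Vsx1* was at 135.4, 133.6 and 149.5 CPM in control and at 253.7, 300.8 and 195.3 CPM in Phase I ROP mice (log2 fold change 0.84 ± 0.17, adjusted p = 0.00159). *Bhlhe23* was at 153.3, 177.1 and 190.4 CPM in control and at 288.2, 264.1 and 290.9 CPM in Phase I ROP mice (0.70 ± 0.14, adjusted p = 0.00155). *Prdm8* was at 226.5, 153.2 and 179.6 CPM in control and at 253.7, 369 and 295 CPM in Phase I ROP mice (0.71 ± 0.18, adjusted p = 0.00542). The groups did not overlap for any of these 3 genes, and for *Prdm8* the highest control mouse came near the lowest Phase I ROP mouse.

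The 4 other members did not pass. *Isl1*, which 63.0% of cells of the ON bipolar-like cluster held, was at 882.6, 995.4 and 1111 CPM in control and at 1030, 1167 and 1221 CPM in Phase I ROP mice, with overlap (log2 fold change 0.19 ± 0.12, adjusted p = 0.205). *Lhx3* was at 46.2 ± 13.5 CPM in control and 67.0 ± 9.95 CPM in Phase I ROP mice (SD, n = 3 each), and the groups did not overlap (0.52 ± 0.27, adjusted p = 0.122). *Fezf2* was at 27.98 ± 9.67 and 48.5 ± 23.7 CPM (0.80 ± 0.38, adjusted p = 0.0984). *Irx6* was at 31.7 ± 9.55 and 29.1 ± 11 CPM (-0.14 ± 0.36, adjusted p = 0.779), and its sign turned when single mice were left out.

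The scaling bears on these counts. With total UMIs in place of TMM, the median of all genes tested moved from 0.03 to 0.45, the share of calls that were higher went from 47.2% to 74.7%, and 8 members were called higher, beside 3817 of 10019 genes (2137 with TMM), with *Isl1* (0.62), *Lhx3* (0.95) and *Fezf2* (1.23) added. The 5 members called with TMM stayed called under each of the 14 alternatives tried, the total UMIs among them, which were added after the data were seen. More rod RNA in the Phase I ROP bipolar class moved with these results, as given above, and the summed bipolar markers moved too (5183 to 5520 CPM in control, 6706 to 8155 CPM in Phase I ROP). Control cells were also spread unevenly over the sub-clusters: 453 of the 494 cells of 1 sub-cluster were control cells, and control cells made up 10.02% to 22.6% of the 4 sub-clusters described above. The part of these shifts in the result was not tested.

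**Figure D3:**
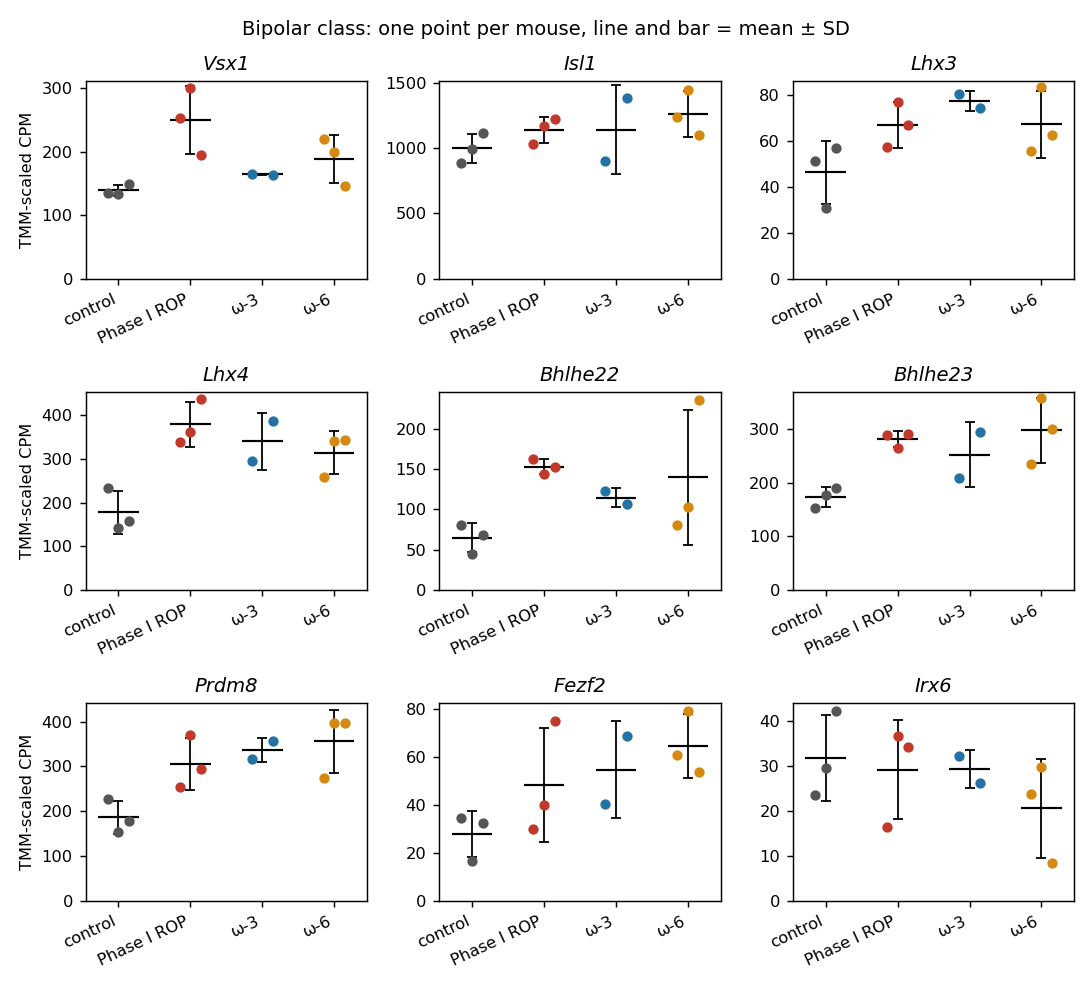
Level of each member in the bipolar class (TMM-scaled CPM, vertical axes from 0) with 1 point per mouse and the mean ± SD, in control, Phase I ROP, ω-3 and ω-6 mice. For *Lhx4*, *Bhlhe22*, *Vsx1*, *Bhlhe23* and *Prdm8*, the 3 Phase I ROP points lie above the 3 control points, and for *Irx6* they overlap.

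Other genes of bipolar development and function gave the setting. In the bipolar class, 21.3% of all genes tested were called higher and 23.9% lower. Of 20 other bipolar regulators, 17 were tested there, and 12 were higher and 0 lower in Phase I ROP. Their median log2 fold change was 0.76. Among those with the highest mean level were *Otx2*, a photoreceptor and bipolar fate gene (0.76 ± 0.12, adjusted p = 0.000237), *Prox1* (1.03 ± 0.13, adjusted p = 2.53e-05) and *Neurod4* (0.16 ± 0.15, adjusted p = 0.391). Of 24 genes of mature bipolar function, 22 were tested, and 8 were higher and 5 lower, with a median of 0.16. Among the 4 with the highest level, the G protein subunit gene *Gnao1* (1.00 ± 0.12, adjusted p = 2.86e-05) and the kinase gene *Prkca* (0.87 ± 0.15, adjusted p = 0.000379) were higher, *Pcp2*, a modulator of the ON cascade, was lower (-1.19 ± 0.12, adjusted p = 5.44e-06), and *Gnb3* did not pass (-0.19 ± 0.12, adjusted p = 0.212).

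In the ON bipolar-like cluster, 5 of the 7 members tested were higher in Phase I ROP, against 19% of 8733 genes (40.8% called in either direction), and 0 were lower. The groups of mice did not overlap for these 5, nor for 52% of all genes tested. They were *Bhlhe22* (log2 fold change 1.40 ± 0.28, adjusted p = 0.00103), *Lhx4* (1.07 ± 0.21, adjusted p = 0.000902), *Prdm8* (0.85 ± 0.20, adjusted p = 0.00388), *Vsx1* (0.78 ± 0.22, adjusted p = 0.0102) and *Bhlhe23* (0.77 ± 0.15, adjusted p = 0.000998). *Vsx1* was no longer called without Phase I ROP replicate 1 (adjusted p = 0.056) or replicate 2 (adjusted p = 0.0723). *Isl1* was at 1237 ± 149 CPM in control and 1532 ± 144 CPM in Phase I ROP (0.32 ± 0.13, adjusted p = 0.0651), and *Lhx3* did not pass (0.54 ± 0.35, adjusted p = 0.2355). *Fezf2* and *Irx6* did not reach the count needed for the test.

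In the *Grik1* cluster, 4 of 8 members tested were higher, against 19.4% of 3549 genes (38.1% called in either direction). The groups did not overlap for *Lhx4*, *Vsx1* and *Bhlhe22*, nor for 51.8% of genes tested there, and they overlapped for *Fezf2*. *Lhx4* was at 164 ± 14.8 CPM in control and 421 ± 65.4 CPM in Phase I ROP (1.502 ± 0.24, adjusted p = 9.99e-05), and *Vsx1* at 271 ± 28.8 and 505 ± 67.3 CPM (1.04 ± 0.21, adjusted p = 0.000867). *Bhlhe22* (1.13 ± 0.35, adjusted p = 0.0169) lost its call without control replicate 3 (adjusted p = 0.0767), Phase I ROP replicate 1 (0.0556) or replicate 2 (0.113), and 2 members were left without control replicate 3 or Phase I ROP replicate 2. *Fezf2* (0.95 ± 0.37, adjusted p = 0.0479) kept its call only without Phase I ROP replicate 1 when mice were left out in turn, and reached an adjusted p of 0.331 without Phase I ROP replicate 3. *Bhlhe23* (0.93 ± 0.37, adjusted p = 0.0509), *Lhx3* (0.67 ± 0.39, adjusted p = 0.1775), *Prdm8* (0.52 ± 0.32, adjusted p = 0.206) and *Irx6* (-0.37 ± 0.45, adjusted p = 0.538) did not pass.

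*Isl1* went the other way in the *Grik1* cluster. The control mice had 5, 11 and 23 UMIs of it, and the 3 Phase I ROP mice had 0. The control level was 63.8 CPM, 9.53-fold above a floor of 3 counts over the Phase I ROP group (6.70 CPM). That floor covers counting error of separate UMIs only. The 127 *Isl1* UMIs of this cluster lay in 3.24% of its cells, so 9.53-fold is not a lower bound of the difference. *Isl1* did not reach the count needed for the test as designed. It entered other fits, the test of the difference between the 2 bipolar clusters (0.0132% of genes called) among them, through groups where it was high, against 0 counts in Phase I ROP, so those fits give no support here. The ω-3 mice had 12 and 41 UMIs and the ω-6 mice 8, 27 and 0. With a clustering made without the members, the counts were 7, 21 and 27 in control and 2, 0 and 0 in Phase I ROP mice. The 30 of 925 cells with an *Isl1* UMI thus came from control and diet mice. Of these cells, 40% also held *Grm6*, against 4.02% of the cells without *Isl1*, at a median of 3196 and 2040 UMIs per cell.

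In amacrine cells, *Prdm8* was the member called. It was at 70.1 ± 20.6 CPM in control and 144 ± 24.3 CPM in Phase I ROP mice (log2 fold change 1.00 ± 0.22, adjusted p = 0.00239), 1 of 4 members tested, against 18.2% of 11315 genes called higher (38.8% in either direction), and the groups did not overlap, as for 50.3% of genes tested. In the same cells, the summed amacrine markers were at 3078 to 3551 CPM in control and 4700 to 5755 CPM in Phase I ROP mice, and the rod markers at 315.7 to 420.8 and 848.8 to 1327 CPM. Their part in the result was not tested. *Bhlhe22* (0.21 ± 0.23, adjusted p = 0.486) and *Isl1* (-0.04 ± 0.31, adjusted p = 0.928) did not pass, and the sign of *Isl1* turned with total UMIs as library size (0.32). *Fezf2* was at 15.4 ± 1.77 CPM in control (39 UMIs) and 6.70 ± 4.49 CPM in Phase I ROP (21 UMIs), and did not pass (-1.19 ± 0.48, adjusted p = 0.0601). It reached the count needed for the test through the control mice, where it was high, so its values are given as a description. The effects of Phase I ROP in amacrine and bipolar cells were also compared directly, and the difference, which passed for 1.8% of genes, passed for none of the 9 members (lowest adjusted p = 0.0993, for *Fezf2*).

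**Figure D4:**
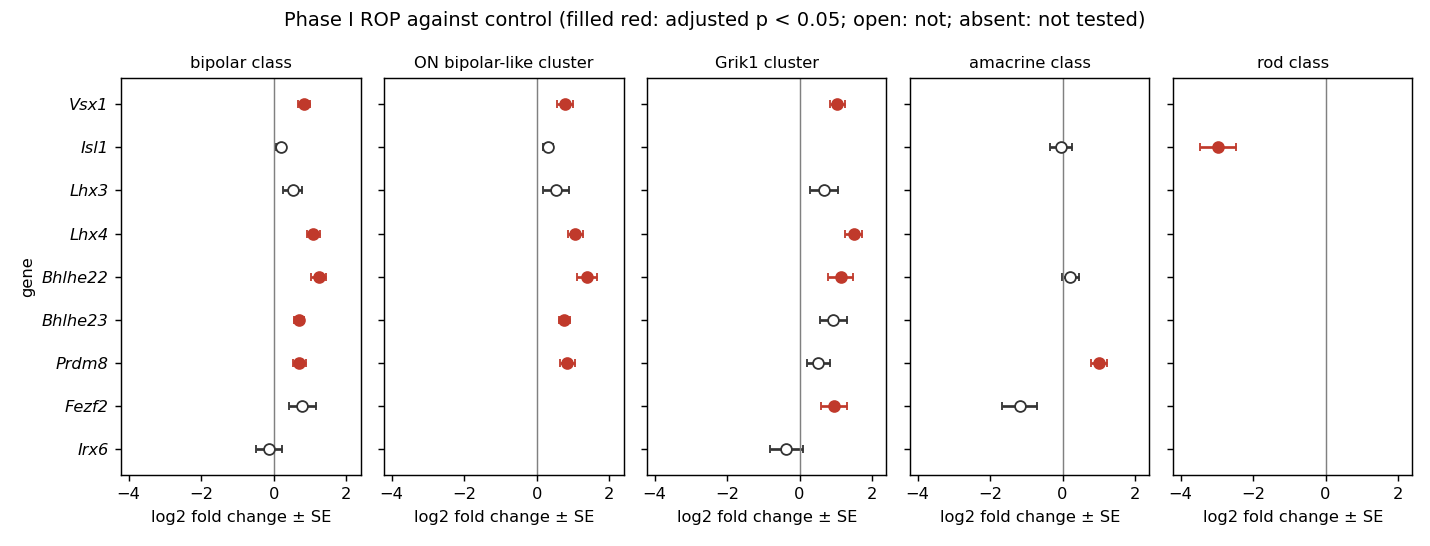
Log2 fold change of each member in Phase I ROP against control mice (horizontal axis, ± SE) in the bipolar class, its 2 clusters, rods and amacrine cells, with filled points for an adjusted p under 0.05 and no point where the member was not tested. The called members lie to the right of 0 except *Isl1* in rods at -2.97. It reached the count needed there through the control mice, so its point is given as a description.

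RNA of the members was also counted in rod droplets, where bipolar genes should be low. The median depth of the rods was 786 to 1656 UMIs per cell. Control mice had 234, 194 and 471 rods and Phase I ROP mice 1031, 650 and 1246. *Isl1* gave 6, 14 and 49 UMIs in the rods of control mice (21.35, 59.65 and 103.7 CPM) and 8, 7 and 13 UMIs in those of Phase I ROP mice (7.93, 11.3 and 12.35 CPM). The groups did not overlap, with a fitted log2 fold change of -2.97 ± 0.50 (adjusted p = 0.000248). It was the 1 member with enough counts for the test, which it reached through the control mice, where it was high, so that the values are given as a description. In that test, 20.4% of 7909 genes were called lower (38.5% in either direction), and the groups did not overlap for 52.5%. In the ω-3 mice it was at 19.2 and 6.17 CPM and in the ω-6 mice at 5.08, 13.8 and 2.89 CPM.

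*Lhx4* and *Vsx1* did not reach the count needed for this test. *Lhx4* gave 1, 12 and 12 UMIs in control and 4, 3 and 3 in Phase I ROP mice, so that control replicate 1 (3.56 CPM) lay within the Phase I ROP range. *Vsx1* gave 1, 4 and 3 UMIs against 2, 0 and 0. The difference between the effects in rods and in bipolar cells was also tested, which called 5.26% of genes, *Isl1*, *Lhx4* and *Vsx1* among them. *Lhx4* and *Vsx1* entered that test through the bipolar samples, with too few rod counts to be tested in rods alone. *Prdm8* had the opposite order, with 0, 0 and 4 UMIs in control rods (up to 8.47 CPM) and 15, 17 and 27 in Phase I ROP rods (14.9, 27.5 and 25.7 CPM). The diet groups were at 28.2 and 25.9 CPM (ω-3) and at 26.9, 18.2 and 18.8 CPM (ω-6). The control libraries stood apart from all others in other genes too, as given above. This order of *Prdm8* did not hold when the 2 unnamed clusters were counted as rods (log2 fold change -0.07, adjusted p = 0.905), a choice made after the data were seen.

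Each member's rod level was also set against its bipolar level in the same mice. Over the 9 members together, the pooled rod level was 8.36% of the bipolar level in control mice (2.57% to 10.98% over mice), 1.48% in Phase I ROP (1.41% to 1.53%), 2.335% in ω-3 and 1.43% in ω-6 mice. The members did not share a ratio. In Phase I ROP mice, *Prdm8* was at 6.59% of its bipolar level (5.49% to 7.78%), and *Isl1* at 0.83% (0.721% to 0.905%), *Lhx4* at 0.885% and *Bhlhe23* at 0.958%. In control mice, *Lhx4* was at 17.2% (1.82% to 43.2%), *Isl1* at 8.39% (2.89% to 11.4%) and *Prdm8* at 2.62% (0% to 5.73%). Genes of mature bipolar function with at least 100 UMIs gave a median of 12.3% in control (18 genes) and 1.99% in Phase I ROP (17 genes), with a range of 0.589% to 255% over genes in Phase I ROP. Summed over the whole list, the rod level was 16.3% of the bipolar level in control and 14.6% in Phase I ROP mice. The highest of the list in Phase I ROP rods were *Gnb5*, *Gnb3* and *Prkca*. Their means were 358, 197.5 and 56.3 CPM scaled by TMM in control and 730, 186 and 119 CPM in Phase I ROP. Against their bipolar levels, *Trpm1* went from 10.9% in control to 1.01% in Phase I ROP, *Grm6* from 7.36% to 0.962% and *Pcp2* from 4.59% to 2.04%. The summed bipolar markers in rods were at 643 to 886 CPM in control and 743 to 920 CPM in Phase I ROP. In both, 10 of 10 markers were detected. The largest part was *Otx2*, which photoreceptors also express, at means of 377 and 579 CPM scaled by TMM. *Prkca* was also higher in Phase I ROP, as given above. The other bipolar markers had lower means there, such as *Trpm1* (51.1 and 10.1 CPM), *Pcp2* (73.7 and 17.15 CPM) and *Scgn* (71.5 and 6.16 CPM). The rod markers summed to 14990 to 26890 CPM in control and 36880 to 51900 CPM in Phase I ROP. The part of these markers in the result was not tested.

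Of the 69 *Isl1* UMIs in control rods, 21 lay in the 1 cluster led by rod markers. In that cluster, *Isl1* gave 3, 1 and 17 UMIs in control (499 cells) and 2, 6 and 8 in Phase I ROP mice (2477 cells). It then did not reach the count needed for the test. The 9 members together were at 5.82% of their bipolar level there in control and 1.203% in Phase I ROP mice.

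**Figure D5:**
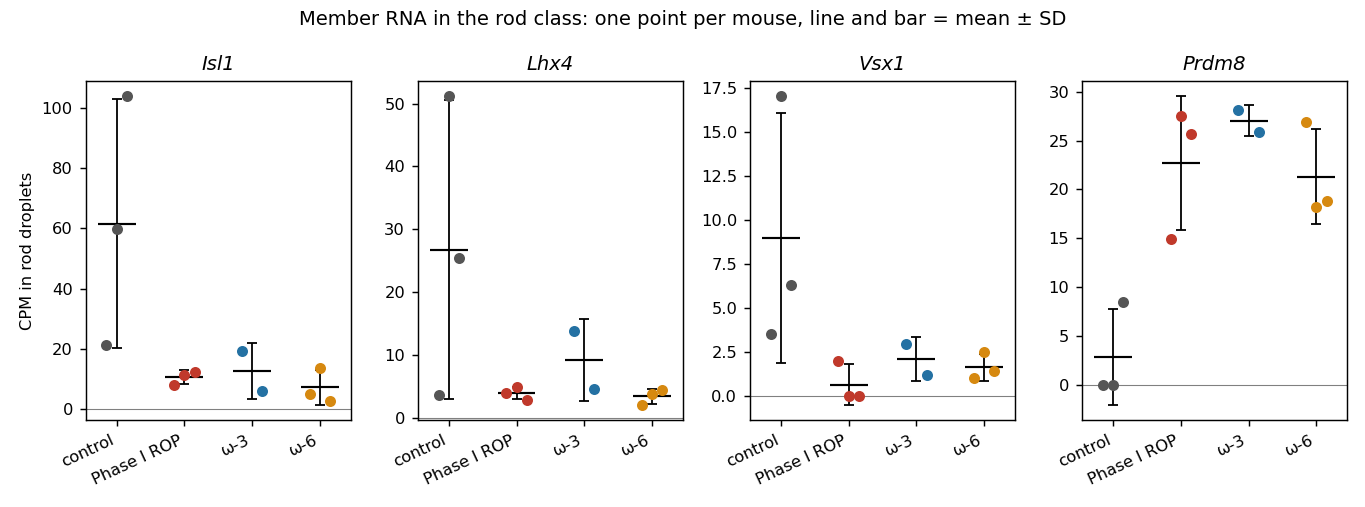
Level of *Isl1*, *Lhx4*, *Vsx1* and *Prdm8* in rod droplets (CPM) with 1 point per mouse and the mean ± SD, in control, Phase I ROP, ω-3 and ω-6 mice. *Isl1* is highest in the control mice (21.35 to 103.7 CPM), and *Prdm8* is lowest in them (0 to 8.47 CPM).

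The other comparison, of the ω-6 with the ω-3 diet among STZ-treated mice, called none of the 9 members in any of the 5 cell groups tested. In the bipolar class, 0 of 11943 genes passed with edgeR (0% called), 505 had an unadjusted p under 0.05 and DESeq2 called 2. None of the members was among the 505, and their log2 fold changes lay between -0.43 (*Irx6*) and 0.26 (*Bhlhe22*), all with an adjusted p of 0.992. *Bhlhe22* was at 122.7 and 106.1 CPM in the ω-3 mice and at 80.65, 102.4 and 235.6 CPM in the ω-6 mice, so that its higher ω-6 mean came from replicate 3. *Isl1* was at 902 and 1379 CPM in the ω-3 mice and at 1237, 1444 and 1097 CPM in the ω-6 mice. *Lhx4* was at 340 ± 64.7 CPM (SD, n = 2) in ω-3 and 314 ± 48.9 CPM (SD, n = 3) in ω-6 mice, and *Vsx1* at 164 ± 0.995 and 189 ± 37.8 CPM. In rods, 2 of 12527 genes passed (0.016%), neither of them a member. The diet effect differed between amacrine and bipolar cells for 0.0216% of genes and between the *Grik1* and ON bipolar-like clusters for 0.0109%, and for none of the members.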

How the data were processed

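Per the labels, retinas of 11 mice were profiled with inDrop. The deposited table held UMI counts per gene and cell, which the authors made from reads with bcbio-nextgen's umis and Rapmap on GENCODE M23, leaving out barcodes with fewer than 500 reads. The submitters' processing notes name mm10 and GRCm38.p6. Here, cells with over 300 genes and genes in over 10 cells were kept, and Seurat 5.3.0 (2000 variable genes, 75 principal components, resolution 0.2) gave 25 clusters, named where leading genes or detected markers of a fixed list allowed. Doublets were not removed, since Scrublet (scanpy 1.11.5) marked 73 cells (0.364%). UMIs were summed per mouse and class and tested in edgeR 4.0.16 (quasi-likelihood, TMM, filter on low counts, Benjamini-Hochberg adjustment over all genes tested, threshold 0.05). Differences of effects between cell groups were added after the data were seen. DESeq2 1.42.0, other scalings, filters, clusterings and left-out mice were alternatives. All 9 members were described by name, and the other regulators and functional genes with the 4 highest mean levels of each list, of which 1 is not reported here. The members and lists were chosen with earlier results of these data known. Floors (3 counts) cover counting error of separate UMIs only. The statistical code was tested on simulated data.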

Additional observations from a re-analysis of the deposited data

Results flagged for a closer look

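The effect of Phase I ROP against control differed between rods and bipolar cells for 3 members, by edgeR's test of the difference itself, added after the data were seen, with p-values adjusted over 10924 genes, of which 575 (5.26%) were called. The log2 effect in rods minus that in bipolar cells was -4.01 for *Lhx4* (adjusted p = 0.00114), -4.14 for *Vsx1* (adjusted p = 0.016) and -2.92 for *Isl1* (adjusted p = 0.000301). *Lhx4* rested on 25 control and 10 Phase I ROP UMIs in rods, *Vsx1* on 8 and 2, and *Isl1* on 69 and 28. *Lhx4* and *Vsx1* did not reach the count needed in rods alone and entered through the bipolar samples, and *Isl1* reached it in rods through the control mice, so these differences are given as values, not as support for a change. The rod marker sum in rods moved with the groups, at 14990 to 26890 CPM in control and 36880 to 51900 CPM in Phase I ROP mice, and its part was not tested.

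For *Isl1*, the fitted effect in the *Grik1* cluster minus that in the ON bipolar-like cluster was -8.02 on the log2 scale (adjusted p = 0.00144 by edgeR), where 1 of 7584 genes (0.0132%) was called. This value is set against a group with 0 UMIs, so it is no bound and no test of a change. In the *Grik1* cluster, the control level was 9.53-fold above a floor of 3 counts in Phase I ROP. That is no bound either, since the UMIs lay in few cells.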

How the results depend on the processing

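In the bipolar class, 118 member values for Phase I ROP against control kept direction and side of the threshold, 4 passed it and 4 turned. *Irx6* turned to 0.11 without control replicate 3, 0.14 without STZ replicate 1, 0.0077 with a clustering without the members and 0.29 with total UMIs, which turned *Gnb3* to 0.24. In the *Grik1* cluster *Irx6* was 0.0017 without STZ replicate 1. In amacrine cells *Isl1* was 0.21 without control replicate 2, 0.30 without STZ replicate 1, 0.13 without the highest doublet scores and 0.32 with total UMIs, and *Bhlhe22* was -0.0035 without STZ replicate 2. The cause was not tested. Over all single left-out mice, *Irx6* ranged from -0.32 to 0.14 (bipolar) and -0.67 to 0.0017 (*Grik1*), and in amacrine cells *Isl1* from -0.37 to 0.30 and *Bhlhe22* from -0.0035 to 0.49.

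Members called higher rose to 8 (bipolar) and 7 (*Grik1* cluster) with total UMIs. Without the filter they were 2 higher and 1 lower in the *Grik1* cluster, and 1 higher and 3 lower in rods. In rods, 0 were lower after thinning (1795 genes called) or in the leading cluster, as *Isl1* then missed the filter, and in amacrine cells 1 was lower without the highest doublet scores. Leaving out single mice gave 2 to 3 higher and 0 to 1 lower in the *Grik1* cluster, 0 to 1 and 1 to 2 in rods, and 1 to 2 and 0 to 1 in amacrine cells. With total UMIs, the share of calls that were higher went from 46.6% to 73.65% (ON), 50.85% to 73.9% (*Grik1*), 47.1% to 67.6% (rods) and 47.0% to 74.35% (amacrine).

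For the diets, DESeq2 called 2 (bipolar), 2 (ON), 2 (*Grik1*), 43 (rod) and 7 (amacrine) genes, and no filter gave 18 (bipolar), 8 (*Grik1*), 158 (rod) and 138 (amacrine). Thinning gave 1 in the *Grik1* cluster and total UMIs 0 in rods. Leaving out single mice gave 0 to 6 (*Grik1*), 0 to 12 (rod) and 0 to 5 (amacrine). In bipolar cells, *Isl1* was -0.12 and *Fezf2* -0.064 without ω-3 replicate 1, *Lhx4* 0.093 without ω-3 replicate 2 and 0.0079 without ω-6 replicate 1, *Prdm8* -0.0073 without ω-6 replicate 2 and -0.0013 without replicate 3, and *Bhlhe22* -0.31 without replicate 3. The highest values without a single mouse were 0.48 (*Isl1*), 0.69 (*Fezf2*), 0.23 (*Prdm8*) and 0.53 (*Bhlhe22*), and the lowest of *Lhx4* was -0.285.

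Mice shared replicate numbers without a stated pairing, and same-number correlations were -0.049 to 0.099 (STZ and control, 15 pairs) and 0.047 to 0.24 (diets, 10 pairs). With the replicate block the diets gave 18 (bipolar), 13 (ON), 8 (*Grik1*), 24 (rod) and 60 (amacrine) genes, *Bhlhe22* -0.31 and *Prdm8* -0.019.

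The rod level as a percent of the bipolar level over 9 members in Phase I ROP was 1.42 without the highest doublet scores and 1.203 in the leading cluster, where ω-6 mice were at 1.16 and *Isl1* at 0.57. *Prdm8* in control was at 12.5 with the unnamed clusters. Thinned to 500 UMIs, bipolar cells with a UMI were 6.77% for *Vsx1*, 28.7% for *Isl1*, 3.05% for *Lhx3*, 13.7% for *Lhx4*, 4.42% for *Bhlhe22*, 10.4% for *Bhlhe23*, 9.42% for *Prdm8*, 1.60% for *Fezf2* and 0.998% for *Irx6*.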

Other observations

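In cones, *Prdm8* was at 94.4 CPM in Phase I ROP (67 UMIs), 94.3 CPM in ω-3 (110 UMIs) and 72.5 CPM in ω-6 mice (127 UMIs), or 28.2%, 25.9% and 19.5% of its bipolar level. Control mice had 14, 13 and 46 cones, with 4 *Prdm8* UMIs, all in replicate 2. *Lhx4* in cones was at 59.2 CPM in Phase I ROP, 64.3 CPM in ω-3 and 34.8 CPM in ω-6 mice, and 5 UMIs were counted in control cones. *Isl1* in cones was at 16.9 CPM in Phase I ROP (12 UMIs), 19.7 CPM in ω-3 (23 UMIs) and 17.1 CPM in ω-6 mice (30 UMIs). Its control value of 11.9 CPM rested on 2 UMIs.

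Other bipolar regulators in rods divided. Of 13 tested, 3 were higher and 7 lower in Phase I ROP by edgeR, against 18.1% and 20.4% of 7909 genes. The median log2 fold change of the 13 was -1.22. *Neurod4* (-1.95, adjusted p = 0.000592) and *Prox1* (-1.87, adjusted p = 0.00302) were lower. *Prox1* (33.1 CPM scaled by TMM in control, 10.2 in Phase I ROP) reached the count needed for the test through the control mice. So did other genes called lower, such as *Nfib* (49.3 and 13.1 CPM), and the lower calls are given as a description. *Otx2*, which photoreceptors also express, did not pass (0.43, adjusted p = 0.149). In amacrine cells, 12 of 15 tested were higher, against 18.2% of 11315 genes, with a median of 1.03. *Prox1* was among the 12 (1.32, adjusted p = 6.54e-05).

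One of the unnamed clusters (198 cells) held 111 control cells, in which 40 *Isl1*, 19 *Prdm8*, 15 *Vsx1* and 11 *Lhx4* UMIs were counted together.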
